A study of Mus musculus with 6 samples.

Results

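The genes described here encode the machinery that breaks down fatty acids in mitochondria and peroxisomes. They are 37 named genes, taken from the tables of all libraries wherever the mean level over the 6 libraries was at least 1 TPM (a length-corrected share of all transcripts, scaled to the same total in each library). All 37 of the 37 named genes met that rule, out of 11551 genes that met it and 36333 genes listed. By the usual location of their proteins, 22 are mitochondrial, 11 are peroxisomal, 3 (Crat, Ech1 and Eci2) are found in both organelles and 1 (Acot1) is cytosolic.

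The stearic acid libraries came from wild-type C57BL/6 mouse macrophages that were given 100 µM stearic acid, a saturated fatty acid, for 24 h (3 libraries). The other 3 libraries came from the same kind of cells given an equal volume of the ethanol vehicle for 24 h. In both groups the cells were grown from bone marrow with M-CSF, the growth factor of macrophages, at 10 ng/mL for 7 days and plated at 250000 cells per well of 24-well plates. Polyadenylated RNA was sequenced, and the labels tie no replicate to an animal or a culture, so p-values cover only the spread between these libraries, which may be technical.

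Long-chain acyl groups enter mitochondria as carnitine esters: CPT1 makes the ester at the outer membrane, the carrier SLC25A20 moves it across the inner membrane and CPT2 turns it back into acyl-CoA. A repeating spiral of dehydrogenation, hydration, a further dehydrogenation and thiolysis then releases acetyl-CoA, and the electrons of the dehydrogenases pass through ETF to the respiratory chain. Peroxisomes shorten very-long-chain and branched acyl groups with oxidases that make hydrogen peroxide, and hand the shortened chains on as carnitine esters. Many of these genes are known targets of the fatty acid-sensing PPAR receptors in liver and muscle.

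The cells carried macrophage markers in all libraries. Summed over the 8 listed markers, the level was 22978 to 28534 TPM with stearic acid and 32390 to 33331 TPM with vehicle, and 5 of the 8 fell while Cd68 rose and 2 did not pass. Markers of lymphoid, stromal, erythroid, mast, fat and liver cells summed to at most 3.70 TPM per list in any library, with Cd3e and Nkg7 listed at 0 throughout. The 9 neutrophil and progenitor markers summed to 6.49 to 7.22 TPM with stearic acid and 2.55 to 4.75 TPM with vehicle. Most of it came from S100a8, the single gene of the 9 that reached the filter, which rose. S100a9 reached 0.715 TPM in vehicle replicate 2, and Ly6g, Elane and Mpo lay at or near 0. The part of these marker differences in the results was not tested. Depth, read from the steps between low values of genes of known length, was about 63900000 to 76200000 reads or read pairs per library with stearic acid and 58000000 to 80500000 with vehicle. Converted to reads, 88.9% to 97.0% of the 27 to 33 values checked per library lay within 0.02 of a whole number.

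With stearic acid, 5 of the 37 genes rose (Cpt1a, Slc25a20, Abcd3, Acot1 and Acot2), 3 fell (Echs1, Hsd17b4 and Crot) and 29 did not pass. A gene passed when its adjusted p in a limma fit over all 11551 genes was under 0.05. The members called made up 21.6%, against 24.7% of all tested genes, so the number of calls is close to the background. By direction, 13.5% of the members rose against 12.8% of all genes, and 8.11% fell against 11.9%. The groups did not overlap in 14 of the 37 genes, against 44.6% of all tested genes. The median difference over the members was -0.003 on the log2(TPM + 1) scale, with stearic acid minus vehicle, and -0.03 over all tested genes; with RPKM in place of TPM the medians were 0.04 and 0.02. In bulk RNA, fewer cells of a type and less RNA per cell cannot be told apart, and TPM is a share of the library. When 1 library at a time was left out, rises among the members ranged from 2 to 5 and falls from 0 to 7. The share of all tested genes called ranged from 4.75% to 43.4% in these fits. The 7 falls came without stearic acid replicate 1, where 32.4% of the members and 43.4% of all tested genes were called.

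**Figure D1:**
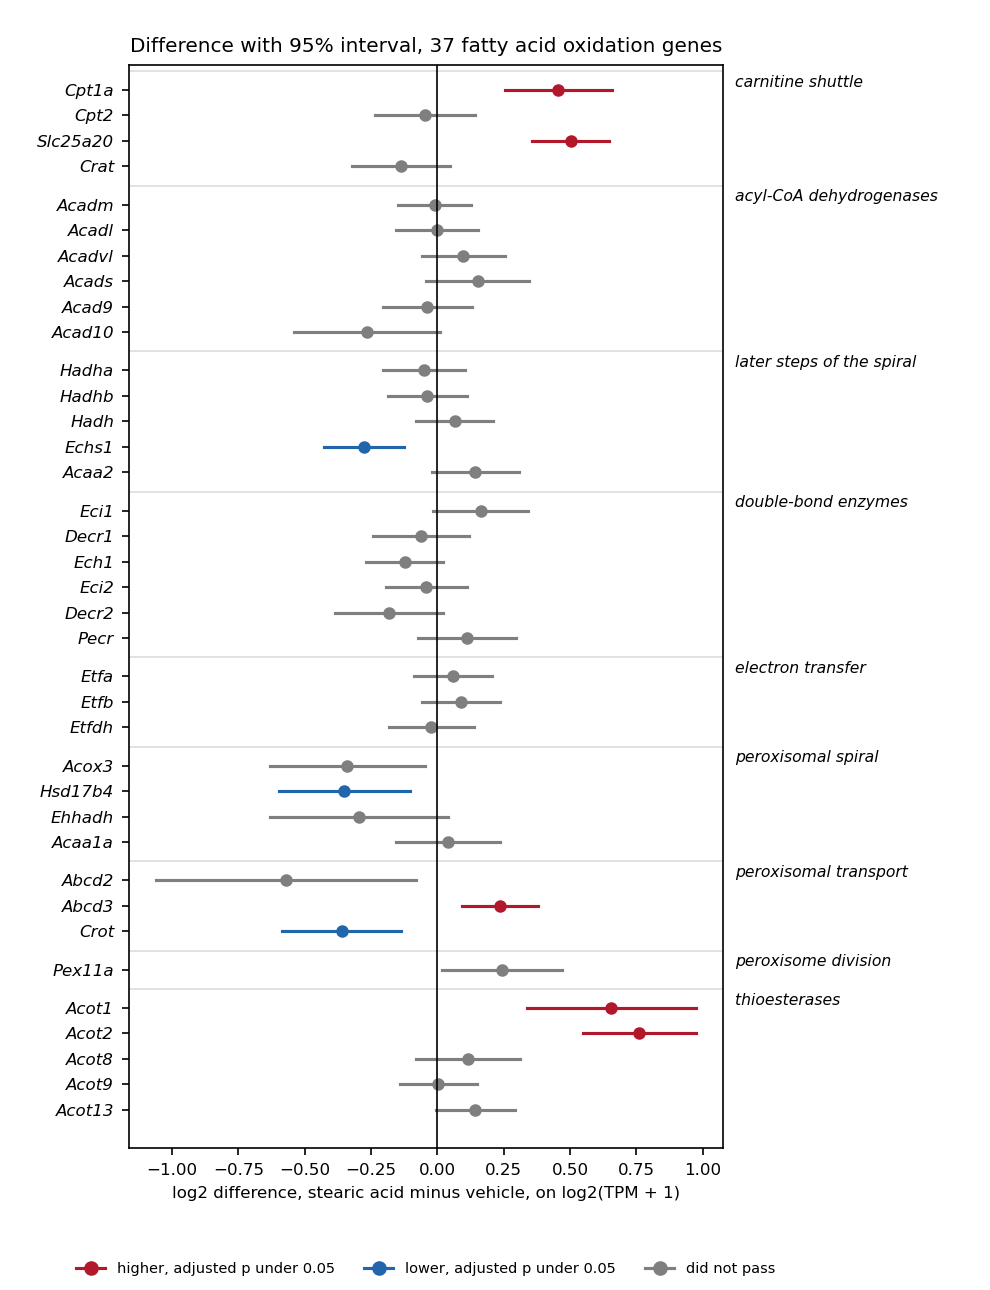
Difference in log2(TPM + 1), stearic acid minus vehicle, for the 37 genes grouped by role; points are estimates, lines 95% intervals from limma (3 libraries per group). The 5 genes that rose lie in the carnitine shuttle, peroxisomal transport and thioesterase groups, and the electron transfer genes lie around 0. The acyl-CoA dehydrogenases, none of which passed, run from -0.26 (Acad10) to 0.15 (Acads).

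Of the carnitine shuttle, the outer-membrane enzyme and the carrier rose and the inner-membrane enzyme did not. Cpt1a, which encodes the main CPT1 of liver and many other tissues and is taken as the controlled step of mitochondrial oxidation (NCBI gene 12894, chromosome 19), had 163, 138 and 147 TPM with stearic acid, against 109, 98.7 and 118 TPM with vehicle. The groups did not overlap, and vehicle replicate 2 was the lowest library. Cpt1a averaged 149 ± 12.7 TPM with stearic acid and 109 ± 9.74 TPM with vehicle (SD, n = 3 each), a log2 difference of 0.46 (SE 0.09, limma adjusted p = 0.011). Slc25a20, the carnitine-acylcarnitine carrier of the inner membrane (gene 57279, chromosome 9), had 69.5, 66.2 and 67.7 TPM with stearic acid, against 47.3, 46.2 and 49.3 TPM with vehicle. All stearic acid libraries lay well above all vehicle libraries, with little spread in either group. Its log2 difference was 0.50 (SE 0.06, limma adjusted p = 0.0022), and it passed in each of the 14 alternative fits tried, whichever single library was omitted. Cpt1a lost its call once vehicle replicate 2 was omitted (limma adjusted p = 0.056). That fit called 4.75% of all tested genes, against 24.7% with all libraries.

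Cpt2, the inner-membrane partner of CPT1 (gene 12896, chromosome 4), had 24.9, 22.0 and 23.3 TPM with stearic acid, against 24.4, 22.3 and 26.0 TPM with vehicle. The groups overlapped, and the log2 difference was -0.05 with a 95% interval of -0.24 to 0.14. Set against Cpt2 within each library, a ratio chosen after the values were seen and so given with no test, Cpt1a stood at 6.53, 6.27 and 6.30 with stearic acid and at 4.46, 4.42 and 4.54 with vehicle. The spread between vehicle libraries that Cpt1a shows in TPM is smaller in this ratio. Slc25a20 stood at 2.79, 3.01 and 2.90 times Cpt2 with stearic acid and at 1.94, 2.07 and 1.90 times with vehicle. Crat, which exchanges short acyl groups with carnitine in mitochondria and peroxisomes, averaged 46.1 ± 3.57 TPM with stearic acid and 50.8 ± 3.11 TPM with vehicle and did not pass (log2 -0.14, limma adjusted p = 0.23). The brain form Cpt1c and the muscle form Cpt1b, which are not among the 37 genes, were at most 2.56 and 1.61 TPM in any stearic acid library and at most 3.67 and 2.25 TPM in any vehicle library, far under Cpt1a. Cpt1c fell (log2 -0.66, limma adjusted p = 0.039) and Cpt1b did not pass (limma adjusted p = 0.31).

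The 250 bases before the start that RefSeq's promoter table uses for Cpt1a (chr19:3323051-3323300, plus strand) and of Slc25a20 (chr9:108661886-108662135, plus strand) are shown because these are the shuttle genes that rose; the sequences are RefSeq's for GRCm38.p6, written 5′ to 3′. PPAR and its partner RXR bind direct repeats of the half-site AGGTCA spaced by 1 base, and capitals mark a match to AGGTCA or its reverse complement TGACCT. The Cpt1a window lies inside the annotated span of the gene, before an internal start, whereas the other windows shown end at the outer end of their gene.
Cpt1a: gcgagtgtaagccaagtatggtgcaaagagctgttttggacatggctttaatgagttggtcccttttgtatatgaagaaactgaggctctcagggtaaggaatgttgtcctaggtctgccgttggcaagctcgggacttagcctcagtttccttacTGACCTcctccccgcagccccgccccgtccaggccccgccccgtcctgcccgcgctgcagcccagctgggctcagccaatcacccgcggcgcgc
Slc25a20: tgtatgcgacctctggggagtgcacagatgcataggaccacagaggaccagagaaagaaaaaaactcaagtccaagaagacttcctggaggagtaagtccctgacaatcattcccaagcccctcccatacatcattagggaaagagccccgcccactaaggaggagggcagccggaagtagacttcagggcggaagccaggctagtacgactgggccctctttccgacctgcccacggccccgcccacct
Cpt1a held 1 half-site, as TGACCT starting 94 bases before that start, and Slc25a20 held none. Of the 37 genes, 30 had an entry in the promoter table, and 4 of these (13.3%: Cpt1a, Acadm, Acadvl and Echs1) held AGGTCA on either strand, against 15.8% of 27025 genes with an entry. The spaced repeat AGGTCANAGGTCA, with N for any base, was in none of the 30 and in 0.0407% of all genes, and the looser AGGNCANAGGNCA, which includes it, was in none of the 30 and in 0.4% of all genes. These are matches of letters in a short window and say nothing of binding there or elsewhere.

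The acyl-CoA dehydrogenases, which open each turn of the mitochondrial spiral on chains of different length, did not change detectably. None of the 6 passed at an adjusted p under 0.05 (limma), where 24.7% of all tested genes did, and 6 genes are too few to stand apart from that share. None did at an unadjusted p under 0.05 (limma), for which the share of all tested genes was not counted. Acadm, the medium-chain enzyme, had 76.9, 74.2 and 75.2 TPM with stearic acid, against 75.6, 74.9 and 77.5 TPM with vehicle. These values overlap fully, and the 95% interval of the log2 difference was -0.15 to 0.13. Acadl, the long-chain enzyme, averaged 105 ± 6.22 TPM with stearic acid and 105 ± 2.41 TPM with vehicle (interval -0.16 to 0.15). Acadvl, the very-long-chain enzyme bound to the inner membrane, averaged 98.5 ± 2.96 TPM with stearic acid and 92.0 ± 5.57 TPM with vehicle (interval -0.06 to 0.26). For these 3 and for Acad9, which also helps assemble respiratory complex I (16.7 ± 0.905 and 17.2 ± 0.469 TPM), the interval stayed within 0.32 of 0 on the log2 scale. It did not for Acads, the short-chain enzyme (53.4 ± 4.83 TPM with stearic acid and 47.9 ± 3.02 TPM with vehicle), or for Acad10, a little-studied member of the family (4.19 ± 0.691 and 5.21 ± 0.593 TPM). Acad10 passed as lower without stearic acid replicate 1 (limma adjusted p = 0.031), in a fit that called 43.4% of all tested genes.

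In the later steps of the spiral, Echs1 fell and the others did not pass, 1 of 5 called against 24.7% of all tested genes. Echs1, the short-chain enoyl-CoA hydratase, which also serves valine breakdown (gene 93747, chromosome 7), had 64.3, 60.3 and 61.3 TPM with stearic acid, against 73.5, 79.1 and 73.3 TPM with vehicle. The groups did not overlap, and the log2 difference was -0.28 (SE 0.07, limma adjusted p = 0.021). Its annotated end overlaps the gene for the polyamine oxidase Paox on the opposite strand over 687 bases, and the counting rule is not given in the sources used here. Paox had 16.6, 11.1 and 13.7 TPM with stearic acid, against 22.3, 21.5 and 23.6 TPM with vehicle, and its part in the Echs1 values was not tested. Against Hadh, the dehydrogenase of the next step, Echs1 stood at 0.940 ± 0.0145 with stearic acid and at 1.20 ± 0.0502 with vehicle (SD, n = 3 each), again a ratio chosen after the values were seen. Echs1 did not pass without stearic acid replicate 3, without any 1 vehicle library (limma adjusted p up to 0.095) or with median-of-ratios scaling. The fits without 1 of those libraries called 4.75% to 9.29% of all tested genes, against 24.7% with all libraries.

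The promoter window of Echs1 lies at chr7:140116422-140116671 (minus strand, written 5′ to 3′ in the direction of the gene). It is shown because this gene fell and holds the same half-site, in capitals, 83 bases before the start.
Echs1: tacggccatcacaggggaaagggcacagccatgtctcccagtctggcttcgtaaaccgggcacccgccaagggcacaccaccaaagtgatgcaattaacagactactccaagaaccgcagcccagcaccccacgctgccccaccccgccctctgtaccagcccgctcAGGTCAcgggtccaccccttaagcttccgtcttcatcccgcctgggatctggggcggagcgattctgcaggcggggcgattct
The half-site stood in the windows of Cpt1a, which rose, Echs1, which fell, and Acadm and Acadvl, which did not pass. Any part of these matches in the direction of change was not tested.

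Hadha and Hadhb encode the subunits of the mitochondrial trifunctional protein, which carries out the last 3 steps on long chains, and lie head to head on chromosome 5 with 272 bases between them. Hadha averaged 84.9 ± 2.47 TPM with stearic acid and 88.0 ± 4.91 TPM with vehicle, and Hadhb averaged 34.7 ± 0.758 and 35.6 ± 1.17 TPM. The ratio of Hadha to Hadhb was 2.52, 2.38 and 2.45 with stearic acid and 2.61, 2.26 and 2.55 with vehicle, with the groups overlapping. Hadh, the dehydrogenase for medium and short chains, averaged 66.0 ± 2.80 TPM with stearic acid and 63.0 ± 0.201 TPM with vehicle, and the thiolase Acaa2 averaged 70.4 ± 4.87 and 63.5 ± 2.13 TPM. All 4 intervals stayed within 0.32 of 0 on the log2 scale. The call on Acaa2 depended on scaling, since it passed as higher with RPKM and with median-of-ratios scaling.

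None of the 3 electron transfer genes or the 6 enzymes that deal with double bonds passed, against 24.7% of all tested genes. Etfb, a subunit of the electron transfer flavoprotein, had the highest mean level of the 37 genes, at 155 ± 2.51 TPM with stearic acid and 146 ± 7.73 TPM with vehicle. Its partner Etfa averaged 113 ± 4.81 TPM with stearic acid and 108 ± 3.19 TPM with vehicle, and Etfdh, which hands the electrons to ubiquinone, averaged 52.5 ± 3.28 and 53.3 ± 1.30 TPM. All 3 intervals stayed within 0.32 of 0 on the log2 scale. Among the double-bond enzymes, the isomerase Eci1 averaged 26.9 ± 2.20 TPM with stearic acid and 23.9 ± 0.723 TPM with vehicle. The mitochondrial dienoyl-CoA reductase Decr1 averaged 17.9 ± 1.08 TPM with stearic acid and 18.8 ± 1.08 TPM with vehicle. Its peroxisomal counterpart Decr2 averaged 30.9 ± 2.60 TPM with stearic acid and 35.2 ± 2.77 TPM with vehicle, with the groups overlapping. Ech1 (108.9 ± 4.69 and 119 ± 2.63 TPM) and Eci2 (40.5 ± 1.87 and 41.6 ± 0.677 TPM), isomerases placed in both organelles, and the peroxisomal reductase Pecr (8.58 ± 0.377 and 7.87 ± 0.495 TPM) did not pass either.

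**Figure D2:**
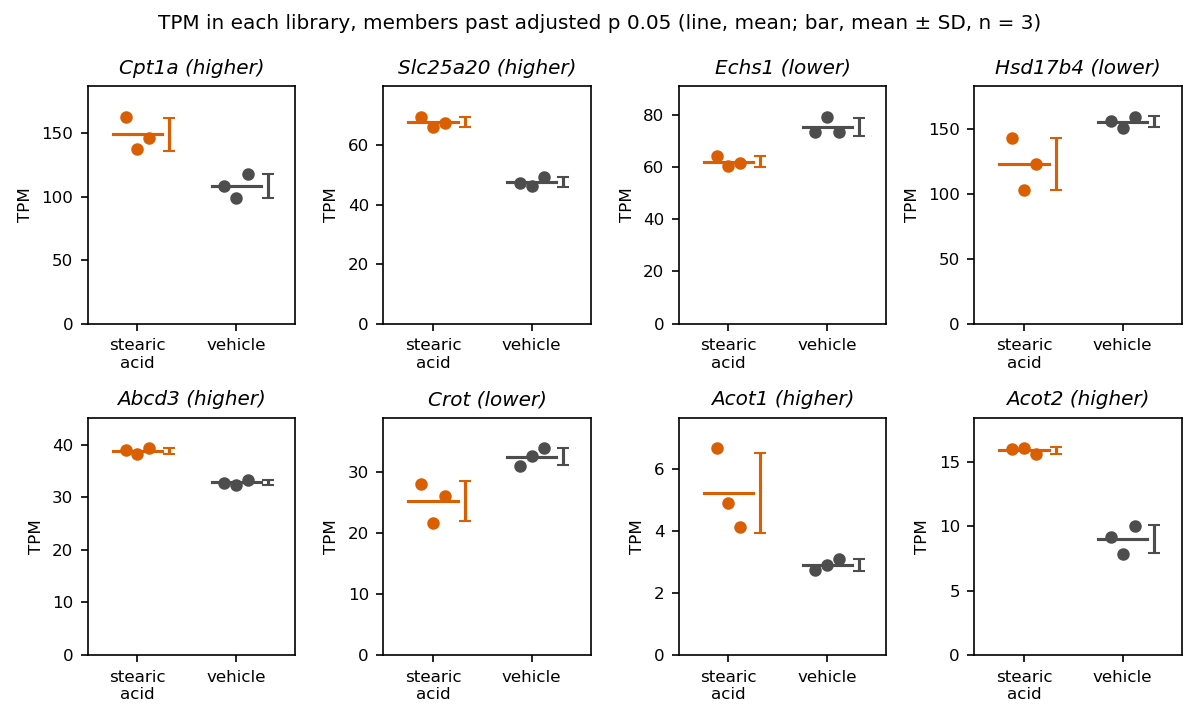
TPM in each library for the 8 genes with an adjusted p under 0.05, stearic acid left and vehicle right; points are libraries, lines means and bars mean ± SD (n = 3). Slc25a20 and Acot2 show the clearest gap, with 66.2 to 69.5 against 46.2 to 49.3 TPM and 15.6 to 16.0 against 7.82 to 10.01 TPM.

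The thioesterases, which split acyl-CoA into free acid and CoA, held the largest rises among the 37 genes. Acot2, the long-chain thioesterase of the mitochondrial matrix (gene 171210, chromosome 12), had 16.0, 16.0 and 15.6 TPM with stearic acid, against 9.13, 7.82 and 10.01 TPM with vehicle. The stearic acid libraries were nearly equal and all lay above vehicle. Its log2 difference was 0.76 (SE 0.09, limma adjusted p = 0.0020), a 1.76-fold ratio of mean TPM, and it passed in each of the 14 alternatives. Acot1, its cytosolic neighbour (gene 26897), had 6.65, 4.89 and 4.14 TPM with stearic acid, against 2.73, 2.88 and 3.09 TPM with vehicle. The groups did not overlap, and stearic acid replicate 1 stood highest (log2 0.66, SE 0.14, limma adjusted p = 0.014). Its ratio of mean TPM was 1.80-fold, so the order of Acot1 and Acot2 depends on the scale. Acot1 did not pass without any 1 vehicle library (limma adjusted p up to 0.067) or with no filter on low values. Those fits called 4.75% to 9.29% of all tested genes, against 24.7% in the main fit.

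Acot2 and Acot1 lie on the same strand with 15624 bases between them and share part of their transcript sequence. Of all 50-base windows in the annotated transcripts of Acot2, 24.5% occur unchanged in those of Acot1, and 13.6% of the Acot1 windows occur in Acot2, so part of their reads may not be separable. The ratio of Acot2 to Acot1 was 2.40, 3.28 and 3.76 with stearic acid and 3.35, 2.71 and 3.24 with vehicle, with the groups overlapping. Their promoter windows (chr12:83987611-83987860 and chr12:84009252-84009501, both plus strand) are shown because the neighbours rose together; neither holds AGGTCA.
Acot2: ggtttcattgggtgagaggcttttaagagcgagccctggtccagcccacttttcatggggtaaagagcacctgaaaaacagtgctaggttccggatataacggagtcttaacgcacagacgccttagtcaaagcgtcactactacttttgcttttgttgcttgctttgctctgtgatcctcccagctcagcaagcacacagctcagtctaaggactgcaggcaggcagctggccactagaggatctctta
Acot1: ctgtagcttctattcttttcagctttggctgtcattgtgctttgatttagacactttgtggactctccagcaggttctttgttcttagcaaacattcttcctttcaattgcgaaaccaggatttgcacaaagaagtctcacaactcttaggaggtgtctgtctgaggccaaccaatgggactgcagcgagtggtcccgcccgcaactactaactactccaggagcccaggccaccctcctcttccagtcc
Of the other thioesterases, Acot9 of mitochondria averaged 58.9 ± 0.797 TPM with stearic acid and 58.8 ± 2.41 TPM with vehicle, with a 95% interval of -0.14 to 0.15. Acot13, also mitochondrial, averaged 92.3 ± 1.82 TPM with stearic acid and 83.6 ± 4.21 TPM with vehicle, and the peroxisomal Acot8 averaged 11.6 ± 0.621 and 10.6 ± 0.911 TPM. Neither passed. As a ratio within each library, Acot2 stood at 0.276, 0.269 and 0.263 of the Acot9 level with stearic acid and at 0.159, 0.127 and 0.175 with vehicle, again chosen after the values were seen.

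**Figure D3:**
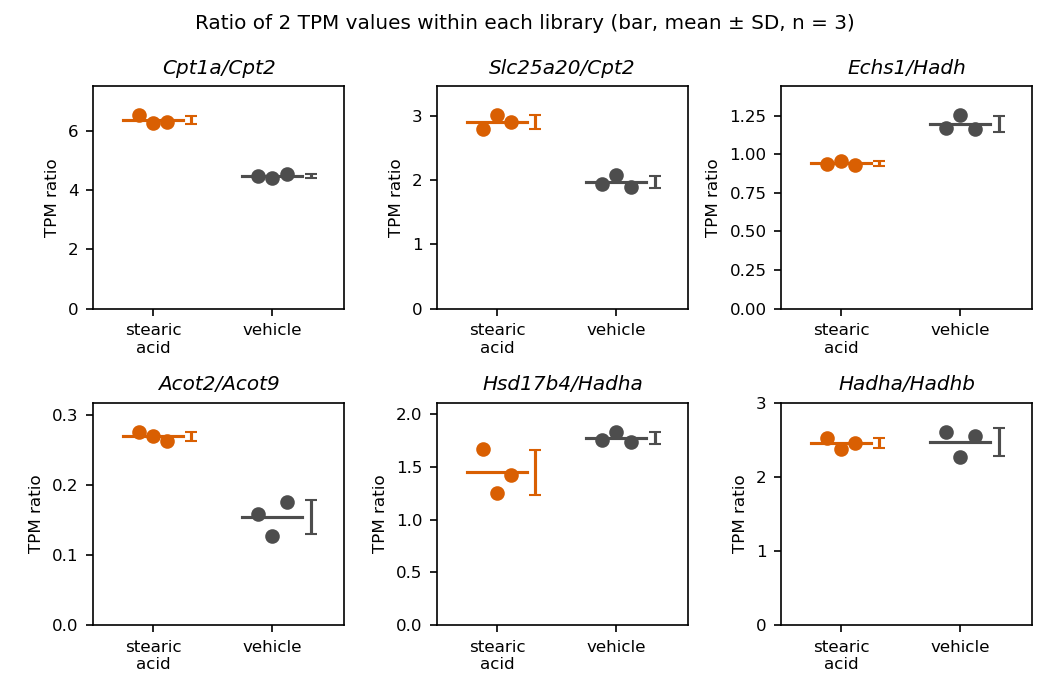
Ratio of the TPM of a pair of genes within each library, stearic acid left and vehicle right; points are libraries, lines means and bars mean ± SD (n = 3). The ratios were chosen after the values were seen; Cpt1a to Cpt2 averages 6.37 against 4.48, while Hadha to Hadhb averages 2.45 against 2.47.

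In the peroxisomal spiral, 1 of 4 genes passed, against 24.7% of all tested genes. Hsd17b4, the bifunctional hydratase and dehydrogenase for very-long-chain and branched substrates (gene 15488, chromosome 18), had 143, 103 and 123 TPM with stearic acid, against 157, 151 and 159.7 TPM with vehicle. All stearic acid libraries lay below all vehicle libraries, and replicate 2 was lowest. Its log2 difference was -0.35 (SE 0.11, limma adjusted p = 0.045), and it passed in 5 of the 14 alternatives, not without stearic acid replicate 2 or 3 or any 1 vehicle library (up to 0.14), nor with RPKM, quantile normalization, no filter on low values or no trend in the variance. The fits without 1 of those libraries called 4.75% to 17.2% of all tested genes, against 24.7% with all libraries. Acox3, an oxidase for branched acyl-CoA, had 64.0, 44.7 and 53.5 TPM with stearic acid, against 69.2, 60.3 and 75.0 TPM with vehicle. The groups overlapped through stearic acid replicate 1 (log2 -0.34, limma adjusted p = 0.084). Ehhadh, the other bifunctional enzyme and the least abundant of the 37 genes, had 2.29, 1.18 and 1.56 TPM with stearic acid, against 2.26, 2.00 and 2.47 TPM with vehicle, and did not pass. The thiolase Acaa1a averaged 121 ± 10.1 TPM with stearic acid and 118 ± 10.1 TPM with vehicle (interval -0.16 to 0.24). Acox3 passed as lower without stearic acid replicate 1 (limma adjusted p = 0.0019), as did Ehhadh (0.0070). That fit called 43.4% of all tested genes. Without stearic acid replicate 2 the log2 differences shrank to -0.23 for Hsd17b4, -0.21 for Acox3 and -0.16 for Ehhadh; Ehhadh stood at -0.45 without replicate 1 and -0.30 with all libraries.

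Of the 3 genes that carry acyl groups into and out of peroxisomes, 1 rose and 1 fell, against 12.8% and 11.9% of all tested genes. Abcd3, a membrane transporter for branched and dicarboxylic acyl-CoA (gene 19299, chromosome 3), had 39.0, 38.3 and 39.3 TPM with stearic acid, against 32.7, 32.4 and 33.4 TPM with vehicle. The difference was small and the spread in each group smaller still (log2 0.24, SE 0.06, limma adjusted p = 0.029). Crot, which makes the carnitine esters that leave peroxisomes (gene 74114, chromosome 5), had 28.1, 21.6 and 26.1 TPM with stearic acid, against 31.1, 32.6 and 33.9 TPM with vehicle. The groups did not overlap (log2 -0.36, SE 0.10, limma adjusted p = 0.031). Abcd2, a transporter of very-long-chain acyl-CoA, had 11.1, 4.97 and 7.17 TPM with stearic acid, against 11.5, 10.3 and 12.7 TPM with vehicle. Stearic acid replicate 1 lay within the vehicle range and replicate 2 far below it (log2 -0.57, SE 0.22, limma adjusted p = 0.082), and the log2 difference was -0.33 without replicate 2. Pex11a, which drives peroxisome division, had 3.70, 4.24 and 4.0 TPM with stearic acid, against 3.04, 2.94 and 3.67 TPM with vehicle (log2 0.24, limma adjusted p = 0.10). Abcd3 and Crot each passed in 1 of the 6 fits that left out a library, the one without stearic acid replicate 1. Abcd2 passed there too (limma adjusted p = 0.00012), in a fit that called 43.4% of all tested genes. Over the 6 fits the highest limma adjusted p was 0.13 for Abcd3 and 0.12 for Crot. Those of the 6 fits in which Abcd3 and Crot did not pass called 4.75% to 17.2% of all tested genes. Pex11a passed as higher with RPKM, median-of-ratios scaling and quantile normalization.

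**Figure D4:**
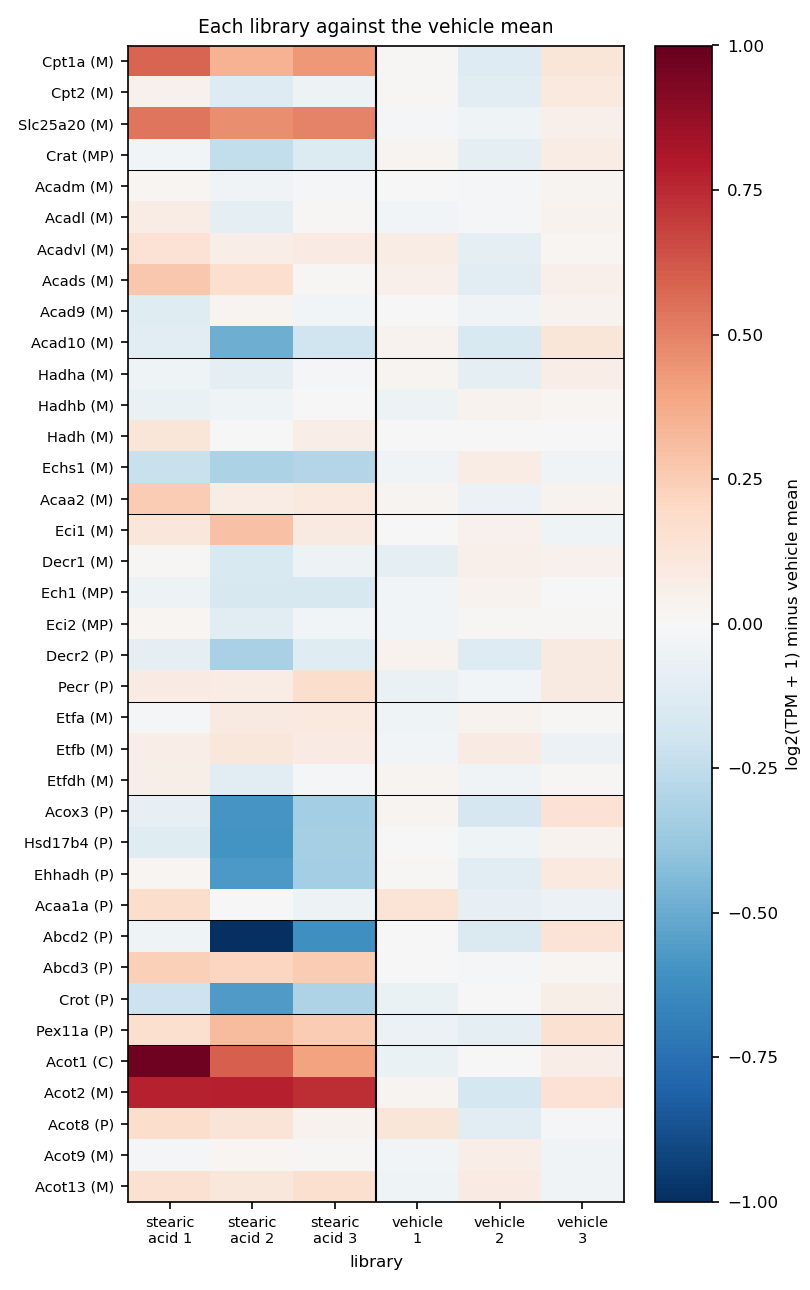
log2(TPM + 1) of each gene in each library minus its mean over the vehicle libraries, stearic acid columns left of the vehicle columns (M, mitochondrial; P, peroxisomal; MP, both; C, cytosolic; lines separate roles). Replicate 2 is the lowest of the 3 stearic acid columns in Abcd2, Hsd17b4, Acox3, Crot, Ehhadh and Decr2, and Slc25a20 and Acot2 are alike in all 3; Abcd2 in replicate 2 lies beyond the end of the colour scale.

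Set side by side, 3 of 22 mitochondrial genes rose and 1 fell, and 1 of 11 peroxisomal genes rose and 2 fell. The shares that rose, 13.6% and 9.09%, and that fell, 4.55% and 18.2%, stand beside 12.8% and 11.9% of all tested genes and rest on 1 to 3 genes each. The median log2 difference was 0.03 over the mitochondrial and -0.18 over the peroxisomal genes. By library, the median peroxisomal change from the vehicle mean was 0.02, -0.32 and -0.12 in stearic acid replicates 1, 2 and 3. It was 0.01, -0.09 and 0.09 in vehicle replicates 1, 2 and 3. The mitochondrial medians were 0.07, 0.02 and 0.01 in stearic acid replicates 1, 2 and 3. The mitochondrial genes summed to 1481, 1411 and 1438 TPM with stearic acid, against 1344, 1339.5 and 1367 TPM with vehicle. The groups did not overlap. Without the 4 called genes the range was 1131 to 1168 TPM with stearic acid and 1106 to 1117 TPM with vehicle, a 1.03-fold ratio of means against 1.07-fold with them. The peroxisomal genes summed to 477, 383 and 420.3 TPM with stearic acid, against 491, 453 and 489.7 TPM with vehicle, and the groups overlapped. The 3 genes placed in both organelles summed to 187 to 206 TPM with stearic acid and 209 to 214 TPM with vehicle. As the genes were chosen with results known, these sums and medians are descriptions and the difference between the compartments was not tested.

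**Figure D5:**
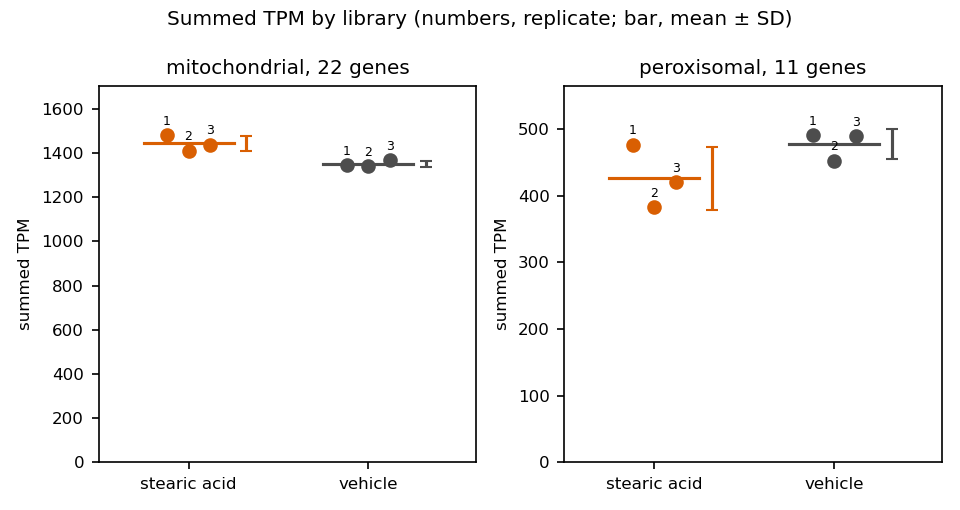
Summed TPM of the 22 mitochondrial and the 11 peroxisomal genes in each library, stearic acid left and vehicle right; numbers are replicates, lines means and bars mean ± SD (n = 3). The mitochondrial sums are 1411 to 1481 against 1339.5 to 1367 TPM, and the peroxisomal sums overlap.

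The stearic acid libraries were not alike. Replicate 2 was the lowest of the 3 in 24 of the 37 genes and replicate 1 the highest in 25. The counts were 14 and 13 of the 22 mitochondrial genes and 8 and 8 of the 11 peroxisomal genes. Of the vehicle libraries, replicate 2 was the lowest in 22 of the 37 genes and replicate 3 the highest in 22. Vehicle replicate 2 was the lowest of its group in 9 of the 11 peroxisomal genes. A library that was often the lowest was thus found in both groups. Median-of-ratios scaling factors, which draw on the whole table, were also lowest in replicate 2 of each group. They were 1.018, 0.952 and 0.992 with stearic acid and 1.024, 0.966 and 1.066 with vehicle, in the order of replicates. The counts were not made over all tested genes, so they do not set the 37 genes apart. In all 6 peroxisomal genes with a negative difference, a set picked by these same values, replicate 2 was the lowest and replicate 1 the highest of the stearic acid libraries. The same libraries were lowest and highest in each of the 5 macrophage markers that fell, such as Adgre1, which encodes F4/80, with 1226, 857 and 1008 TPM with stearic acid, against 1532, 1499 and 1579.9 TPM with vehicle. These markers were likewise picked by their fall, and the order was not counted over all genes that fell. Over all 2856 called genes, the median absolute log2 change from the vehicle mean was 0.28, 0.60 and 0.43 in replicates 1, 2 and 3. The part of that general difference between libraries in the peroxisomal values was not tested. Cpt1a and Acot1, which rose, also had replicate 1 as the highest of the 3, so replicate 1 lay farthest from vehicle in these genes, and Slc25a20 and Acot2 were nearly equal in all 3.

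Other genes of fatty acid and acyl-CoA oxidation, from a list of 20 mitochondrial names of which 18 were tested, mostly did not follow Cpt1a. In that list 1 rose, 7 fell and 10 did not pass, a share of 44.4% called against 24.7% of all tested genes, with 38.9% lower against 11.9%. Oxct1, which activates ketone bodies, had 118, 102 and 110.2 TPM with stearic acid, against 149, 151 and 151 TPM with vehicle (log2 -0.45, SE 0.07, limma adjusted p = 0.0053). Acat1, the acetoacetyl-CoA thiolase (log2 -0.28), and Ivd, the isovaleryl-CoA dehydrogenase of leucine breakdown (log2 -0.42), fell too. The other fallers besides Cpt1c, named after their values were seen, were Acadsb (log2 -0.28), Acad8 (log2 -0.35) and Gcdh (log2 -0.27), dehydrogenases of amino acid breakdown rather than of fatty acids. The riser, named likewise, was Hsd17b10 (log2 0.26), a short-chain dehydrogenase that is also a subunit of mitochondrial RNase P.

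Of 15 tested genes among 22 other peroxisomal ones, 2 rose, 2 fell and 11 did not pass, a share of 26.7% called against 24.7% of all tested genes. Cat, the catalase that removes the hydrogen peroxide made by the oxidases, had 505, 614 and 549 TPM with stearic acid, against 276, 269 and 296 TPM with vehicle. The groups lay far apart (log2 0.98, SE 0.08, limma adjusted p = 0.00031). Tysnd1, a protease that trims peroxisomal enzymes on import, rose as well (log2 0.36). Scp2, the thiolase and sterol carrier, and Phyh, which starts the alpha-oxidation of phytanic acid, fell by 0.30 and 0.33 on the log2 scale. Of 15 peroxins, which build peroxisomes, 1 rose, the import docking protein Pex14 (log2 0.39), and 14 did not pass, 6.67% called against 24.7% of all tested genes.

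Of 15 tested regulators out of 21 listed, 2 rose and 13 did not pass, 13.3% called against 24.7% of all tested genes. Pparg, the lipid-sensing receptor of macrophages and fat cells, had 15.1, 18.5 and 18.3 TPM with stearic acid, against 13.4, 12.4 and 13.6 TPM with vehicle (log2 0.37, SE 0.09, limma adjusted p = 0.024). Esrra, a nuclear receptor of mitochondrial genes, rose by a log2 difference of 0.34. Ppard averaged 21.0 ± 2.18 TPM with stearic acid and 21.9 ± 3.17 TPM with vehicle and did not pass (limma adjusted p = 0.74). Ppara, the PPAR of liver, was listed at 0 in 4 of the 6 libraries and at most 0.00491 TPM in the others. The coactivator gene Ppargc1a was at most 0.0212 TPM in any library, whereas Ppargc1b averaged 1.46 ± 0.0242 TPM with stearic acid and 1.30 ± 0.101 TPM with vehicle and did not pass. Pdk4, a kinase that turns down pyruvate oxidation and a known PPAR target, lay at 0.0217 TPM or less in every library.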

How the data were processed

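The authors deposited, per the file headers, TPM and RPKM (read counts scaled for gene length and library total) for each gene in each of the 6 libraries. Libraries were made with a stranded mRNA kit, per the labels' protocols. DRAGEN and the builds GRCm38 and mm10 (1 assembly) are named in the submitters' processing notes; the annotation, counting rule and use of strand are not given in these sources.

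The deposited values were fitted with limma 3.58.1 in R 4.3.3, with an intensity-dependent prior, on log2(TPM + 1), keeping genes that averaged 1 TPM or more. Treatment was the only term, and p-values were adjusted by Benjamini-Hochberg over all 11551 genes. This scale understates the change of low genes. The fit was tested on simulated data. Gene numbers of all 37 members matched RefSeq's table for GRCm38.p6, and RefSeq gave positions, overlaps and promoters; strands and transcripts came from GENCODE's annotation of the same assembly. Genes named outside the members follow a rule: every call of a list with 5 or fewer, otherwise the 3 smallest p and the 2 largest differences, plus the main regulators; Cpt1b, Acadsb, Acad8, Gcdh, Hsd17b10, Ppargc1a and Pdk4 were added after their values were seen; 1 gene is not reported here. Members and lists were chosen with earlier results of these data known. Same-numbered libraries were not treated as pairs. Alternatives covered pseudocount, filters, RPKM, scaling, variance model, replicate block and leaving out each library.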

Additional observations from a re-analysis of the deposited data

How the results depend on the processing

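Slc25a20 and Acot2 passed in all 14 alternatives, Cpt1a in 13, Echs1 and Abcd3 in 9, Acot1 in 9 of the 13 that tested it, Crot in 8 and Hsd17b4 in 5. When 1 library was left out, the genes called over the whole table numbered 549 to 5013 (2856 with all libraries), members higher 2 to 5, members lower 0 to 7, mitochondrial members higher 2 to 3 and peroxisomal members higher 0 to 1. Leaving out stearic acid replicate 1 gave the most calls and leaving out vehicle replicate 2 the fewest (549, with 384 higher and 165 lower). Without the filter on low values, 1027 of 21632 genes were called, and 1 member was lower. Peroxisomal members higher numbered 2 with RPKM, with median-of-ratios scaling and with quantile normalization, as Pex11a passed beside Abcd3.

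With the replicate block, 5 members were lower (Acox3 and Abcd2 in addition) and 5 higher, of 3638 genes called. The deviations of same-numbered libraries from their group means correlated at 0.07, 0.29 and 0.04 for numbers 1, 2 and 3. Of the 3 stearic acid libraries, 1 correlated best with its own number. With 3 libraries per group these values can neither show nor exclude pairing. The block was not used in the main fit because the labels tie no replicate to an animal or a culture.

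Sign changes befell values near 0 that did not pass in either fit, and the cause was not tested. With RPKM the log2 differences were 0.033 for Acadm, 0.041 for Acadl, 0.0041 for Acad9, 0.0052 for Hadhb, 0.0024 for Eci2 and 0.021 for Etfdh; with median-of-ratios scaling they were 0.033, 0.041, 0.0039, 0.0050, 0.0021 and 0.021 in the same order. Over the fits that left out 1 library, the ranges were -0.104 to 0.0023 for Cpt2, -0.024 to 0.0032 for Acadm, -0.042 to 0.043 for Acadl, -0.072 to 0.0015 for Acad9, -0.064 to 0.024 for Etfdh, -0.026 to 0.109 for Acaa1a and -0.015 to 0.037 for Acot9.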
